A study of Mus musculus with 24 samples.

Results

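The 54 genes described here copy the genome or divide the cell. They were chosen by symbol from 21883 protein-coding genes, and 30 of them act in DNA replication and 24 in mitosis. A gene was taken with 5 kb on either side, and a peak counted when it overlapped that window by 1 bp or more. Peaks came from CUT&RUN, in which an antibody brings a nuclease to a chromatin protein and the DNA cut loose around it is sequenced. All libraries were made from nuclei of wildtype mouse retina, taken 2 days (P2) or 17 days (P17) after birth. At each age the antibodies were against SOX8 (4 libraries from 2 antibodies), SOX9, H3K4me3, H3K27ac or nonspecific IgG (2 libraries each), which makes 24 libraries, 20 of them with a target antibody. The strain and the number of retinas behind a library are not given in the labels.

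Replication starts with the loading of the MCM helicase by Cdc6 and Cdt1, continues with polymerases held by the Pcna clamp, and is followed by mitosis, in which Cdk1 with its cyclins, the Aurora and Polo kinases and motor proteins of the spindle part the chromosomes. E2F factors turn on many replication genes, and mitosis genes are often switched through a CHR element with CCAAT boxes beside it. Retinal progenitors still divide shortly after birth, whereas the retina at the later age consists of cells that have left the cycle. H3K4me3 marks active or poised promoters, H3K27ac marks active promoters and enhancers, and SOX8 and SOX9 are related transcription factors of progenitors and of Müller glia, the main glial cells of the retina.

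Promoter sequences of 7 of the genes are shown to represent the main patterns. Sequences are from RefSeq on GRCm38.p6, which listed 45 of the 54 genes with a promoter of 300 bases (250 before the start and 50 after). The bases shown are the longest stretch before the start that lay outside every annotated gene, 5′ to 3′ on the gene's strand, and capitals mark E2F, CHR and CCAAT matches. Tacc3, a spindle protein, and Ccne1 (cyclin E1), which drives entry into S phase, had a SOX peak over the start at both ages.
Tacc3 (chr5:33657978-33658127, plus strand): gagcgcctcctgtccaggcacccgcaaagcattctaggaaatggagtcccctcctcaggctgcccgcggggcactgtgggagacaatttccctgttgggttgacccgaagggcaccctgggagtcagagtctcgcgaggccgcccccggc
Ccne1 (chr7:38107491-38107740, minus strand): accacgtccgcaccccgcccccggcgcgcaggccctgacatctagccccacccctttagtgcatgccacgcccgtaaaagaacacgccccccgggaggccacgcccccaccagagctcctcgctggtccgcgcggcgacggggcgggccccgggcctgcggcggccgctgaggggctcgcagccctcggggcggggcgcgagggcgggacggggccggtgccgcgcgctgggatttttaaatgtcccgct
Mki67, which coats mitotic chromosomes, Cdk1, the main mitotic kinase, and Top2a, which untangles sister DNA, had H3K4me3 over the start at P2 and not at P17.
Mki67 (chr7:135716451-135716629, minus strand): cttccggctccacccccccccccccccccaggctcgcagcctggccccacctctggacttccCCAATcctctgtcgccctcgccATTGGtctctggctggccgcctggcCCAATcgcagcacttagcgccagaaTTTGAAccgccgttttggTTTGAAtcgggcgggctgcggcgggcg
Cdk1 (chr10:69352913-69353162, minus strand): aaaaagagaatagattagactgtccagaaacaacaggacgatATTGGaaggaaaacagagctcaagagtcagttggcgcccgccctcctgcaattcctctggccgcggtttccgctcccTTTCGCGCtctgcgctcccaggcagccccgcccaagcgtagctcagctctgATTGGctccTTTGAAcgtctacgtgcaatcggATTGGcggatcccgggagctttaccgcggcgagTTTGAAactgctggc
Top2a (chr11:99024200-99024439, minus strand): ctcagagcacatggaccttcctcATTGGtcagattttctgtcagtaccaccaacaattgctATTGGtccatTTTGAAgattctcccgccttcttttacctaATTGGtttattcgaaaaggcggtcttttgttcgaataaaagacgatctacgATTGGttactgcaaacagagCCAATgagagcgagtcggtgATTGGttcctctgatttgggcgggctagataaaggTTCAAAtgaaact
Plk1 (Polo kinase) and Cenpe, a kinesin of the kinetochore, had H3K4me3 over the start and no SOX peak in any list.
Plk1 (chr7:122159185-122159434, plus strand): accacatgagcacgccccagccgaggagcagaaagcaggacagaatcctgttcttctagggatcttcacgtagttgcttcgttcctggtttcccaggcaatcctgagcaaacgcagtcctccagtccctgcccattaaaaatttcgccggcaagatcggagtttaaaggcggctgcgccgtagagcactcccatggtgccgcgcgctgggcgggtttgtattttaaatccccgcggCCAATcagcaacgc
Cenpe (chr3:135212313-135212562, plus strand): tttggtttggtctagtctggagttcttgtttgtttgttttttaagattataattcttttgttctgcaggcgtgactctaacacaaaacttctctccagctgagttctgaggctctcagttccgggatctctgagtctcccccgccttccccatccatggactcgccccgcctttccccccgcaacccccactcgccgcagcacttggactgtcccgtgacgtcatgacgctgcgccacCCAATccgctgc

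The data used were 8 lists of peak intervals, 1 for each target and age, with no height, p-value or replicate. For SOX8 there were 2653 peaks at P2 and 2400 at P17, and for SOX9 5476 and 2855. The H3K4me3 lists were of like length, with 9134 peaks at P2 and 9629 at P17, whereas the H3K27ac lists held 287845 and 29909. Depth is unknown and no IgG list was analysed here, so no difference below carries a replicate error or a test. The main counts stand beside the share of other genes in the same list. Markers of rods (15 genes) had H3K4me3 at 9 genes at P2 and at 15 at P17, and markers of Müller glia at 9 and 4 of 10. Of markers of retinal pigment epithelium, 1 of 6 had the mark at each age, of endothelium 1 of 5, and of microglia 0 of 5. Of the other protein-coding genes, 49.2% had it at P2 and 50.9% at P17. In these last sets H3K27ac lay at 5 of 6, 5 of 5 and 5 of 5 genes at P2, against 81.7% of other genes. At P17 it lay at 1, 2 and 0 of them, against 57.0%. SOX9 peaks lay at 3 of the 15 rod markers at P2 and at 13 at P17, and at 7 and 1 of the 10 Müller glia markers. SOX8 peaks lay at 2 and 6 of the rod markers and at 5 and 1 of the Müller glia markers. At P17 the SOX peaks thus lay more often at rod than at Müller glia markers, and the reason was not tested. These are counts of genes with a peak and not of cells. The part of any shift in cell types in the results below was not tested. In whole retina, fewer cells with a mark and less of the mark per cell cannot be told apart.

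Nearly all of the 54 genes carried H3K4me3 at their start at P2, and most did not at P17. A peak lay within 1 kb of the start (for 9 genes with no listed start, of either end) at 52 genes at P2 and at 19 at P17. The mark was therefore present at P2 and absent at P17 at 33 of 52 starts (63.5%), among them those of the helicase subunits Mcm2, Mcm3, Mcm5 and Mcm6, the transcription factor E2f1, and the mitosis genes Cdk1, Ccnb1, Mki67 and Top2a. Over the other protein-coding genes, 44.1% had H3K4me3 at the start at P2 and 45.6% at P17, and of 9631 that had it at P2, 729 lacked it at P17 (7.57%). No start of the 54 genes had the mark at P17 without having it at P2, while 1046 of 12198 other genes did (8.58%), but only Mcm10 and Ccnb2 among the 54 could have.

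**Figure D1:**
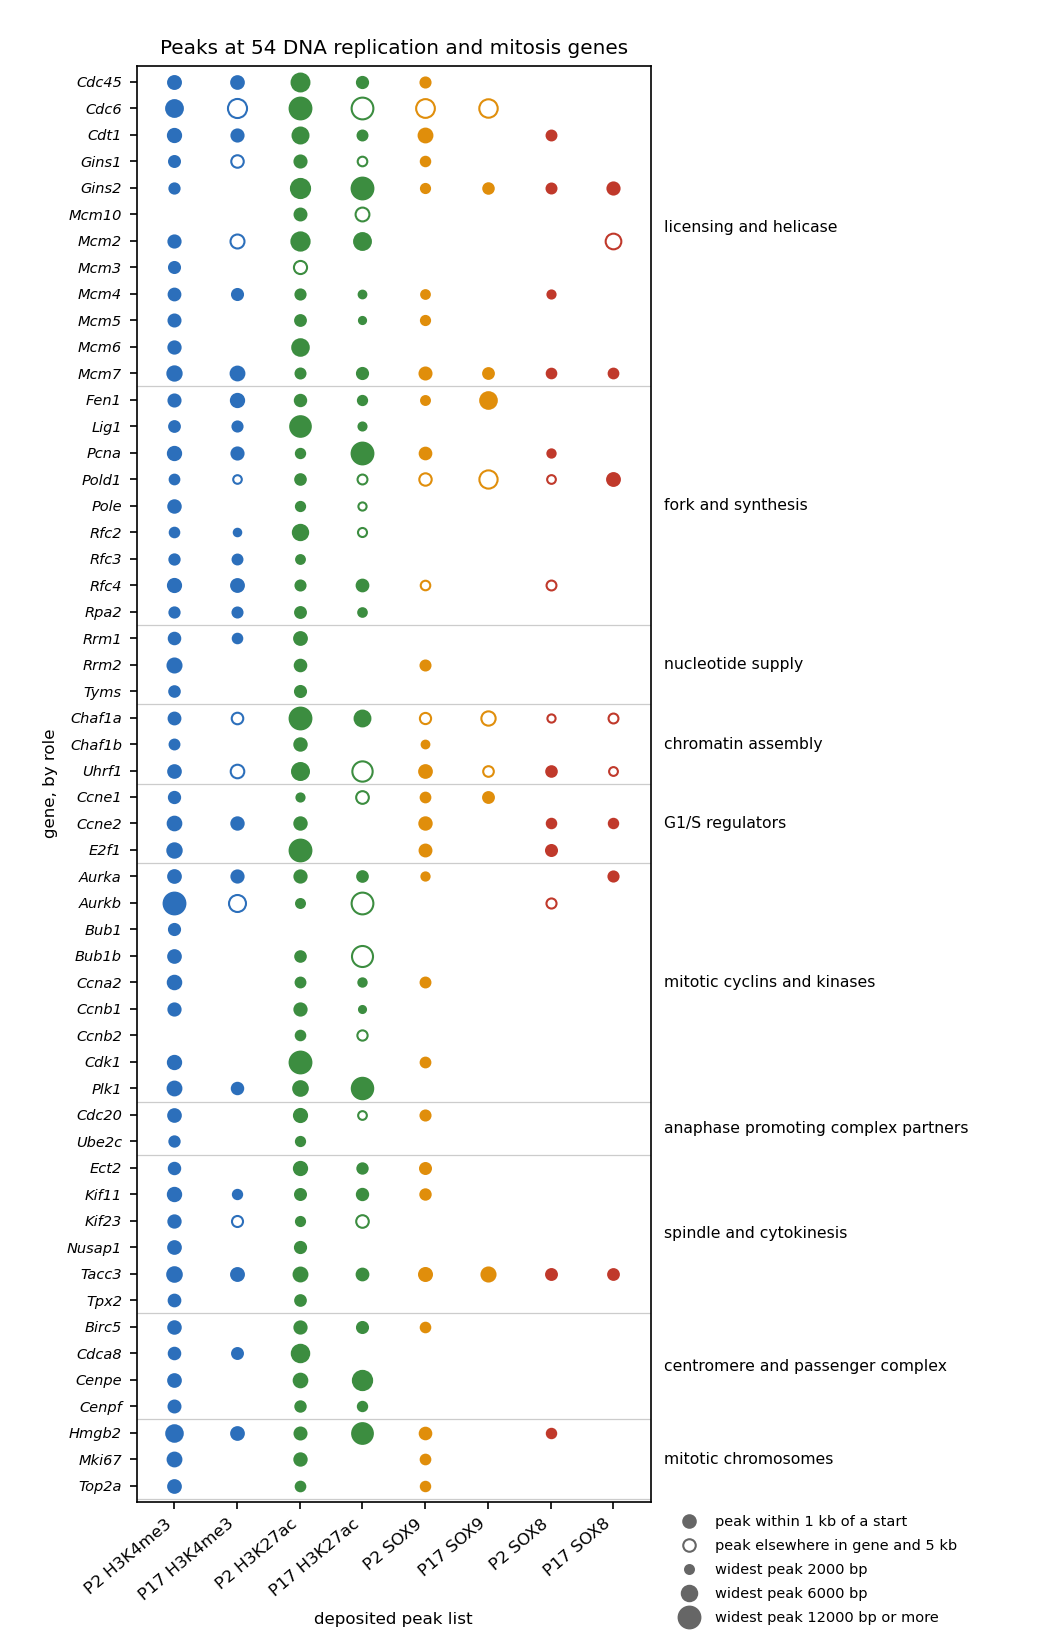
Peaks at the 54 genes (rows, grouped by role) in the 8 lists (columns). A filled circle is a gene with a peak within 1 kb of a start, an open circle a gene with a peak only elsewhere in the gene or its 5 kb flanks, and the area follows the width of the widest peak in bp, capped as the key shows. The H3K4me3 column is filled at 52 genes at P2 and at 19 at P17, and the P17 SOX columns are sparse.

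Among the licensing and helicase genes, 4 of 11 kept H3K4me3 at the start. These were Cdt1 and Mcm4, Mcm7 and Cdc45, which load or form the replicative helicase. Cdc6, Mcm2, Mcm3, Mcm5, Mcm6, Gins1 and Gins2 had it at P2 only. At Mcm2, Mcm3, Mcm5 and Mcm6 the P2 peak was 3407, 3053, 3613 and 3759 bp wide, against 3468 and 5135 bp at Mcm4 and Mcm7. Subunits of 1 helicase were thus split between both outcomes, and their P2 widths overlapped. At both ages the peak at Mcm4 also covered a start or gene end of Prkdc, and that at Mcm7 the start of Ap4m1. Those peaks cannot be given to 1 gene, so the split cannot be read as a difference between subunits.

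Genes of the fork and of DNA synthesis kept the mark most often, at 7 of 9 starts. They were Pcna, the clamp, Rfc2, Rfc3 and Rfc4, subunits of the clamp loader, Fen1 and Lig1, which process and seal Okazaki fragments, and Rpa2, which covers single-stranded DNA. The polymerase genes Pold1 and Pole had it at P2 only, with peaks of 2358 and 3890 bp. Of the nucleotide genes, Rrm1 kept a peak (3326 bp at P2 and 2281 bp at P17), whereas its partner in ribonucleotide reductase, Rrm2 (4944 bp), and Tyms, which makes thymidylate (2796 bp), did not.

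None of the 3 chromatin assembly genes kept it: Chaf1a and Chaf1b, subunits of the histone chaperone CAF-1, had P2 peaks of 2694 and 2435 bp, and Uhrf1, which helps to copy DNA methylation, 3760 bp. Of the G1/S regulators, Ccne2 kept a peak (4680 bp at P2 and 3830 bp at P17), while Ccne1 (3171 bp) and E2f1 (5197 bp) had one at P2 only. Across replication genes, 16 of 29 starts lost the peak (55.2%).

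Mitosis genes lost it at 17 of 23 starts (73.9%). Of the mitotic cyclins and kinases, Aurka and Plk1 kept it and 6 of 8 did not: Ccna2 (4572 bp at P2), Ccnb1 (3730 bp), Cdk1 (4436 bp), the checkpoint kinases Bub1 (3109 bp) and Bub1b (4019 bp), and Aurkb (13617 bp, the widest H3K4me3 peak at the 54 genes). Both partners of the anaphase promoting complex had it at P2 only, Cdc20 with 4010 bp and Ube2c with 2660 bp.

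Of the spindle and cytokinesis genes, Tacc3 and the motor Kif11 kept it, while Kif23 (3788 bp), Tpx2 (3431 bp), Nusap1 (4036 bp) and Ect2 (3259 bp) did not. Of the centromere genes, Cdca8 kept it, and Birc5, its partner in the chromosomal passenger complex (3909 bp), Cenpe (4027 bp) and Cenpf (3574 bp) did not. Hmgb2, a chromatin protein, kept it, and Mki67 (4789 bp) and Top2a (4049 bp) did not. Mcm10, which helps to start the helicase, and Ccnb2, a second cyclin B, had no H3K4me3 peak in the window at either age, although both had H3K27ac within 1 kb of the start at P2.

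Other genes of the same processes gave lower shares than the 54 genes. Among 38 other replication genes, 32 had H3K4me3 at the start at P2 and 9 of these lacked it at P17 (28.1%). Among 45 other mitosis genes, 41 had it at P2 and 21 lacked it at P17 (51.2%). In both sets of lists, mitosis genes had the higher share, and all of these shares lay above the 7.57% of the other protein-coding genes.

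**Figure D2:**
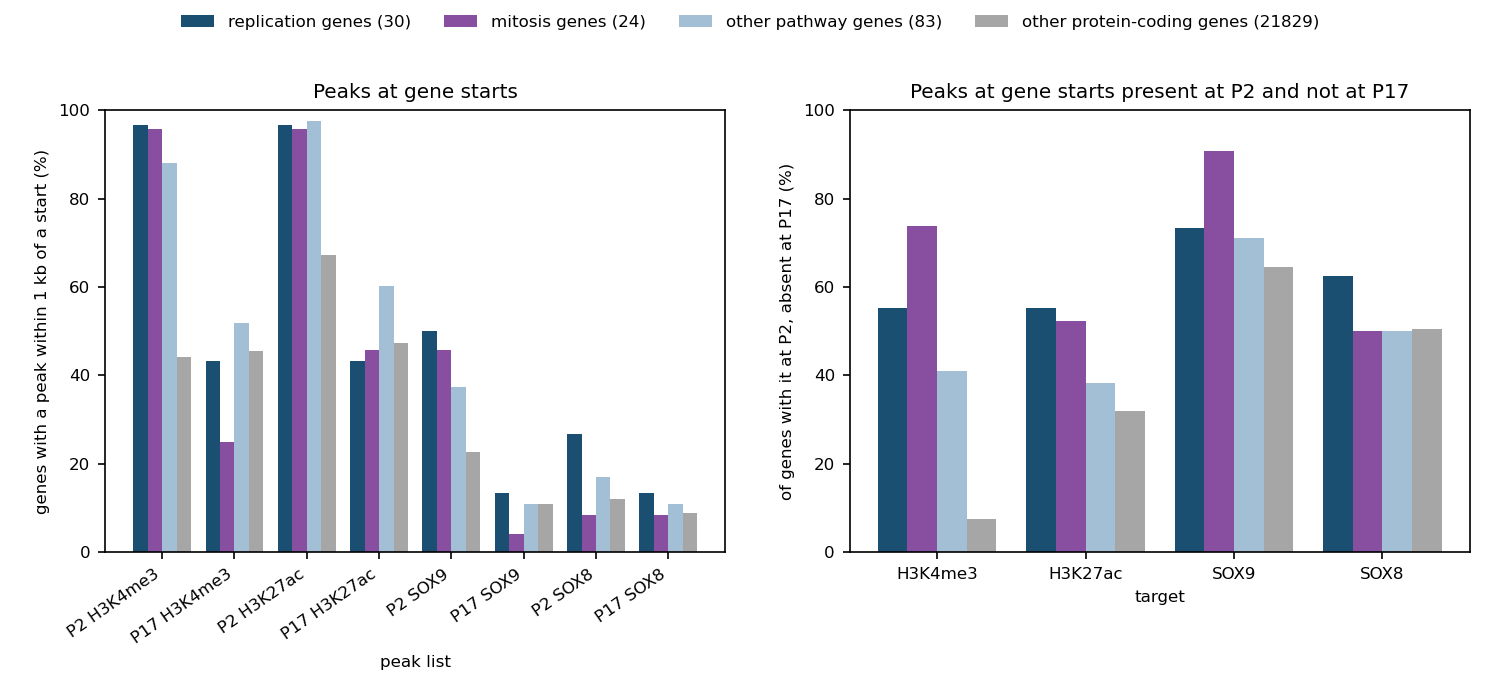
Left, percent of genes with a peak within 1 kb of a start in each list; right, of the genes with such a peak at P2, the percent without it at P17, both for replication genes, mitosis genes, 83 other replication or mitosis genes and the other protein-coding genes. The right panel shows H3K4me3 absent at P17 at 55.2% of replication and 73.9% of mitosis starts, against 7.57% of the other genes.

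The 19 starts that kept H3K4me3 mostly carried a narrower peak at P17. Their median width was 4043 bp at P2 (2298 to 6887 bp) and 3086 bp at P17, and the peak was wider at P2 at 16 of 19. The other replication and mitosis genes that kept the mark showed the same, with a peak wider at P2 at 32 of 43 (74.4%). Their median was 3826 bp at P2 and 2885 bp at P17, so the narrowing was not particular to the genes chosen here. At 8902 other protein-coding genes with the mark at both ages the median was 3606 bp at P2 and 3834 bp at P17. Of these, 41.4% were wider at P2. The ratio of P17 to P2 width was lowest at Kif11 (0.486, from 4467 to 2169 bp), Hmgb2 (0.589, from 6887 to 4059 bp), Rfc2 (0.616, from 2298 to 1415 bp) and Cdt1 (0.645, from 4394 to 2835 bp). It was 0.683 at Plk1, 0.686 at Rrm1 and 0.698 at Pcna. The exceptions, wider at P17, were Rfc4 (1.38, from 2968 to 4104 bp), Fen1 (1.21, from 3654 to 4408 bp) and Tacc3 (1.01, from 4098 to 4150 bp). The 33 starts without a P17 peak had a P2 median of 3730 bp (1377 to 13617 bp), so their P2 widths overlapped those of the starts that kept it.

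**Figure D3:**
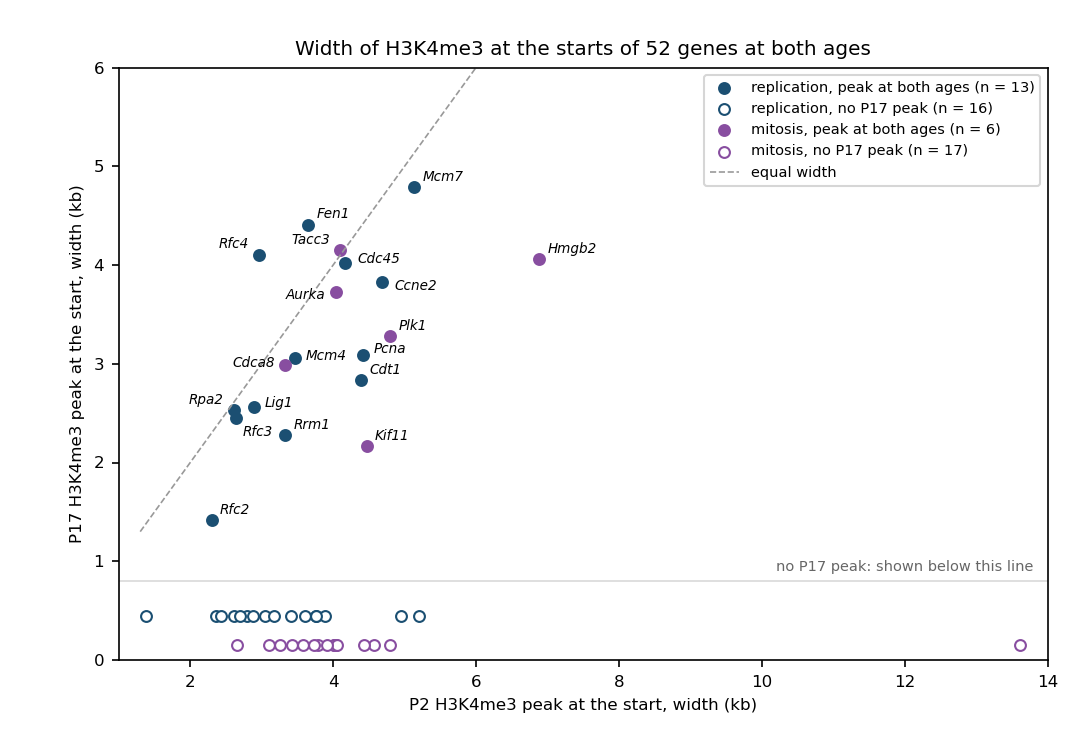
Width in kb of the H3K4me3 peak at the start at P2 (horizontal) and P17 (vertical) for the 52 genes with a P2 peak; each point is 1 gene, the dashed line is equal width, and genes without a P17 peak lie below the grey line. Of the 19 named genes, 16 lie below the dashed line, and the P2 peaks of the other 33 span 1377 to 13617 bp.

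At 8 of the 33 genes without a P17 peak at the start, an H3K4me3 peak lay elsewhere in the window at P17. At Gins1, Mcm2, Pold1, Kif23, Cdc6, Chaf1a and Uhrf1 that peak lay closer to the start of another gene: Abhd12, Tpra1, Nr1h2, Rplp1, Gm46294, Sh3gl1 and Kdm4b. Where the other gene had no listed start, either of its ends stood in. At Aurkb a P17 peak of 7309 bp ended 3148 bp from the nearer end of the gene, inside the stretch that the P2 peak of 13617 bp had covered. After Aurkb, the widest P2 peaks in the windows were at Cdc6 (7081 bp) and Hmgb2 (6887 bp), and the widest P17 peaks were at Cdc6 (9215 bp), Aurkb and Mcm2 (4954 bp). Counted over the whole window, H3K4me3 was present at 52 genes at P2 (96.3%, against 49.2% of other genes) and at 27 at P17 (50.0%, against 50.9%). Over the window 25 of 52 genes lost it (48.1%, against 6.71% of other genes).

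Whether another gene starts close by was examined after the values were seen. Of the 43 genes with a listed start and H3K4me3 there at P2, 8 had the start of another protein-coding gene within 1 kb, and 7 of these kept the mark. They were Aurka (433 bp from Cstf1), Cdca8 (131 bp from 9930104L06Rik), Tacc3 (151 bp from Tmem129), Mcm7 (138 bp from Ap4m1), Lig1 (105 bp from Zswim9), Cdc45 (322 bp from Ufd1) and Fen1 (191 bp from Tmem258). Nusap1, 207 bp from Oip5, did not keep it. Of the 35 genes with no such neighbour, 9 kept it (25.7%): Pcna, Rpa2, Rfc3, Rfc4, Rrm1, Plk1, Hmgb2, Cdt1 and Kif11. A peak over a shared promoter cannot be given to 1 of its 2 genes. Among other protein-coding genes, 98.1% of 1554 with a neighbour and 91.4% of 6291 without kept the mark, and among other replication and mitosis genes 81.2% of 16 and 43.2% of 44.

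**Figure D4:**
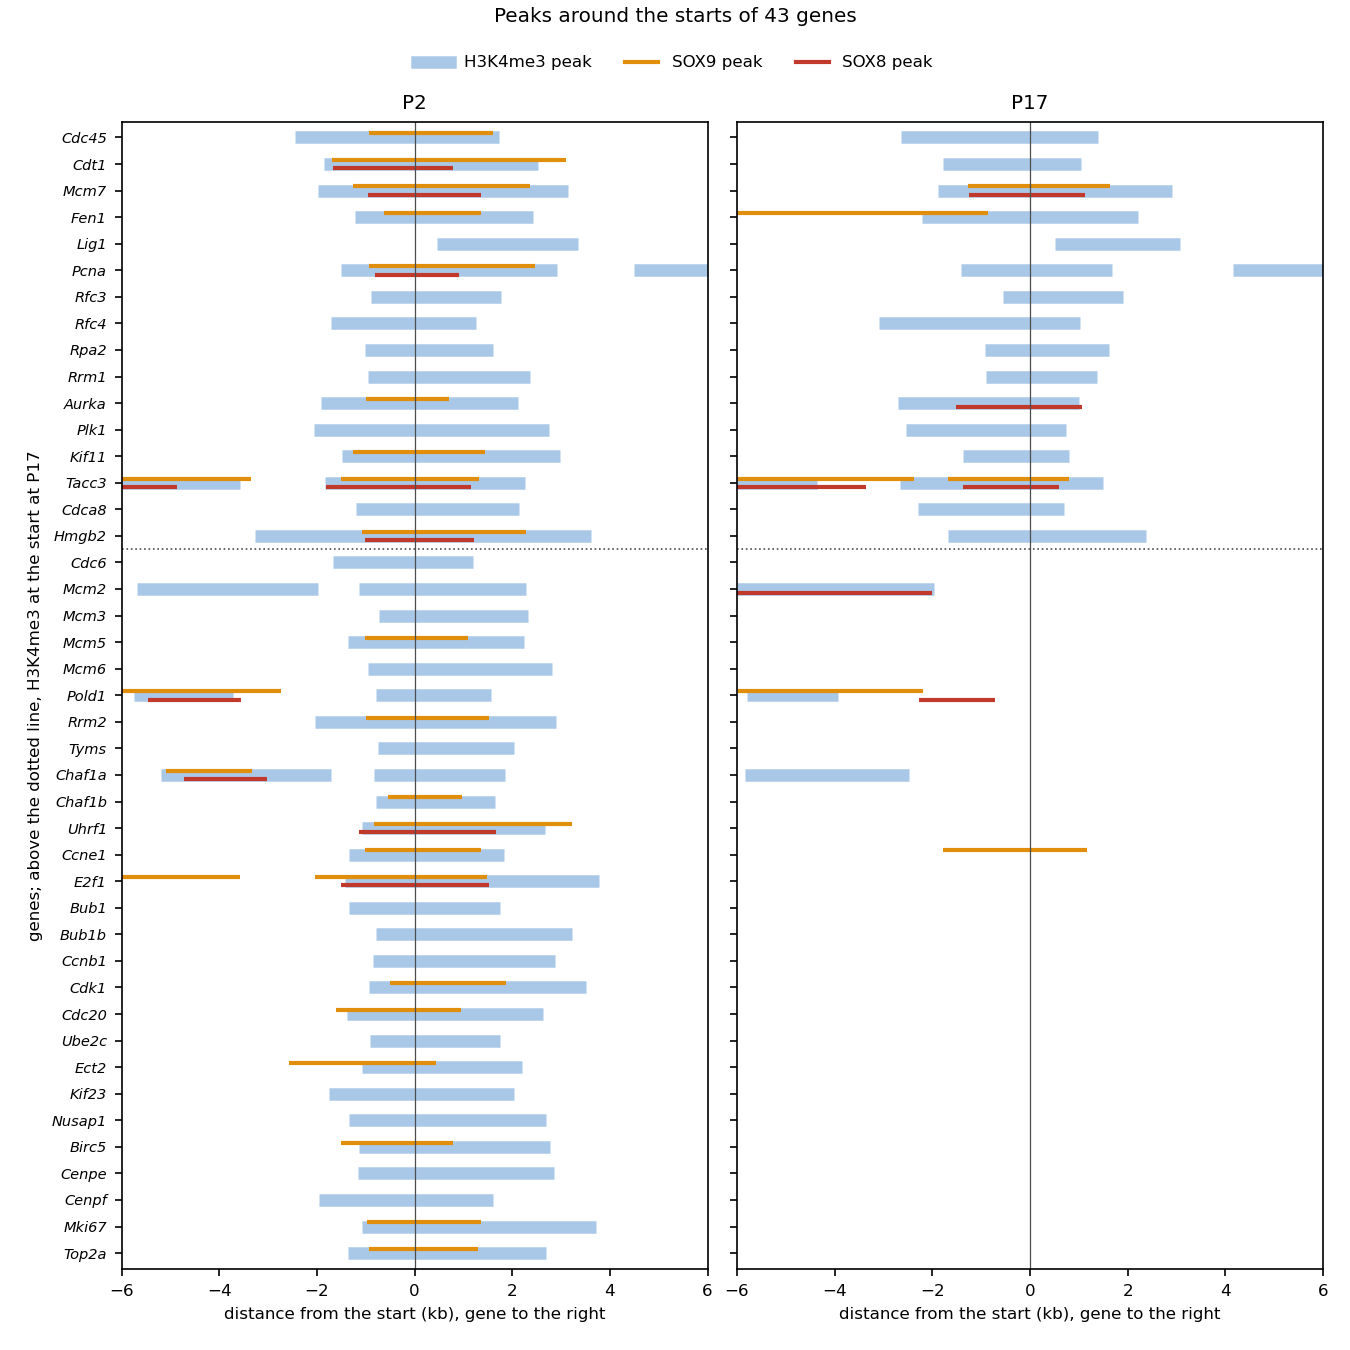
H3K4me3 (pale blue), SOX9 (orange) and SOX8 (red) peaks within 6 kb of the listed start of 43 genes at P2 (left) and P17 (right), with distance from the start in kb and the gene to the right. Genes above the dotted line had H3K4me3 at the start at P17; below it, the P17 panel holds the SOX9 peak over Ccne1 and peaks upstream of Mcm2, Pold1 and Chaf1a.

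H3K27ac was present in the window at 53 of 54 genes at P2 (98.1%, against 81.7% of other genes) and at 37 at P17 (68.5%, against 57.0%). Bub1 was the gene without it at P2. At the start it was present at 52 genes at P2 (96.3%, against 67.2%) and at 24 at P17 (44.4%, against 47.3%). These shares are over all genes, with or without H3K4me3. Among genes with H3K4me3 in the window at the same age, 98.1% had H3K27ac there at P2, against 99.8% of other such genes. At P17 the shares were 85.2% and 94.3%, so at neither age did the 54 genes exceed other marked genes. Of the starts with H3K27ac at P2, 53.8% lacked it at P17, against 31.9% of other genes. Over the whole window the share was 30.2%, near the 30.7% of other genes. The lists differ greatly in length. With only as many of the widest P2 peaks as the P17 list holds, the P2 count in the window was 30 genes. That is below the 37 at P17, and the share of other genes under this cut is not given.

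At P17, 14 of the 19 starts with H3K4me3 also had H3K27ac (73.7%), against 91.8% of other genes that kept H3K4me3. Ccne2, Cdca8, Rfc2, Rfc3 and Rrm1 had H3K4me3 there without H3K27ac. Of the 33 starts that lost H3K4me3, 10 had H3K27ac at P17 (30.3%, against 25.5% of other genes that lost it). These were Mcm2, Mcm5, Gins2, Chaf1a, Ccna2, Ccnb1, Ect2, Cenpe, Cenpf and Birc5. At the other starts that lost H3K4me3, those of 12 replication and 11 mitosis genes, neither mark was listed at P17.

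The widest H3K27ac peaks touching the windows at P2 were at E2f1 (30559 bp), Chaf1a (22334 bp) and Cdk1 (21854 bp). At P17 they were at Gins2 (102365 bp), Cdc6 (40534 bp) and Aurkb (21734 bp). The Gins2 peak was wider than the whole Gins2 window. Those at Cdc6 and Aurkb did not come within 1 kb of the start (for Aurkb, of either gene end). E2f1 and Cdk1 had no H3K27ac peak in the window at P17. Among genes with H3K4me3 at the same age, the median widest H3K27ac peak was 3744 bp at P2 and 3211 bp at P17, against 3871.5 and 5066.5 bp at other genes. Among all genes with an H3K27ac peak the order turned at P2, with 3676 bp at the 54 genes and 3221 bp at other genes, and not at P17, with 3108 and 4691.5 bp.

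SOX9 peaks lay at 30 of the 54 genes at P2 and SOX8 peaks at 14. All of these genes had H3K4me3, so the shares were taken over the 52 with that mark: 57.7% with SOX9, against 53.3% of 10733 other genes with P2 H3K4me3, and 26.9% with SOX8, against 29.9%. Both shares lay near those of other marked genes. At the start itself the counts were 26 for SOX9 (50.0%, against 48.7%) and 10 for SOX8 (19.2%, against 26.8%). In the window, 19 of 30 replication genes had SOX9 (65.5% of those with P2 H3K4me3) and 11 had SOX8 (37.9%). Among 24 mitosis genes, 11 had SOX9 (47.8%) and 3 had SOX8 (13.0%). At starts with H3K4me3 the SOX9 shares were closer, 51.7% of replication and 47.8% of mitosis genes. The SOX8 shares there were 27.6% and 8.70%.

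At P2, 13 genes had both factors, 17 had SOX9 without SOX8, and Aurkb had SOX8 without SOX9. The genes with both were Cdt1, Mcm4, Mcm7 and Gins2 of the helicase and its loading, Pcna, Pold1 and Rfc4 of the fork, Chaf1a and Uhrf1, Ccne2 and E2f1, Tacc3, and Hmgb2. Of 16 SOX8 peaks at the 54 genes, 16 overlapped H3K4me3 and 15 overlapped SOX9. Of 37 SOX9 peaks at the 54 genes, 33 overlapped H3K4me3. The same shares over all peaks of each list are not given, so these overlaps cannot be read as particular to the 54 genes. Among the 54 genes, the widest SOX8 peaks were at E2f1 (3030 bp), Tacc3 (2966 bp) and Uhrf1 (2797 bp). The widest SOX9 peaks there were at Cdc6 (8879 bp), Cdt1 (4799 bp) and Tacc3 (4228 bp).

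Over the mitosis genes shown above, the P2 SOX9 peak spanned positions -980 to 1355 bp from the start at Mki67, -500 to 1880 bp at Cdk1 and -927 to 1299 bp at Top2a. None of these had SOX8. SOX9 without SOX8 also lay at the starts of the mitosis genes Ccna2, Cdc20, Ect2, Kif11, Birc5 and Aurka and of the replication genes Cdc45, Gins1, Mcm5, Fen1, Rrm2, Chaf1b and Ccne1, and in the Cdc6 window. No SOX peak was listed at 22 genes in any list, among them Mcm3, Mcm6, Tyms, Lig1, Rpa2, Rrm1, Plk1, Bub1, Bub1b, Ccnb1, Nusap1, Tpx2, Ube2c, Cenpe and Cenpf. Of the 52 genes with P2 H3K4me3, 20 had none (38.5%), against 39.3% of other such genes.

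At P17, SOX8 and SOX9 each lay at 9 of the 54 genes. Over the 27 genes with P17 H3K4me3 the counts were 8 for SOX8 (29.6%, against 23.1% of 11107 other genes with the mark) and 7 for SOX9 (25.9%, against 27.4%). Of the 30 genes with SOX9 at P2, 21 had none at P17 (70.0%, against 58.9% of other genes), and none gained it. Of the 14 with SOX8 at P2, 7 had none at P17 (50.0%, against 46.4%), and Aurka and Mcm2 had it at P17 only. Of the 11 mitosis genes with SOX9 at P2, Tacc3 kept it. The P2 SOX9 list was longer than the P17 list, and its widest peaks, in the number of the P17 list, touched 13 of the genes. For that count the share of other genes is not given.

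A P17 SOX peak over or within 1 kb of the start was found at 8 genes, of which 5 had H3K4me3 at the start at P17. SOX8 lay there at 6 genes (11.1%, against 8.90% of other protein-coding genes) and SOX9 at 5 (9.26%, against 10.8%), and 13.6% of the other genes had either, so these counts lay near the background. At Mcm7 the SOX8 peak was 2377 bp and the SOX9 peak 2903 bp wide (2315 and 3620 bp at P2), over H3K4me3 at both ages. At Tacc3 they were 1969 and 2487 bp (2966 and 2832 bp at P2), with a second pair of peaks at the start of Slbp, a histone mRNA binding gene. Aurka had a SOX8 peak of 2573 bp at P17 and a SOX9 peak of 1698 bp at P2. The SOX peaks over the starts of Mcm7, Tacc3 and Aurka also covered the starts of Ap4m1, Tmem129 and Cstf1. Those peaks cannot be given to 1 gene. Ccne2 had SOX8 at both ages, 2256 bp at P2 and 2227 bp at P17, and SOX9 at P2 only (3837 bp).

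Of the other 4 genes with a P17 SOX peak near the start, 3 had no H3K4me3 there. Gins2, a subunit of the helicase cofactor GINS, had SOX8 (3714 bp) and SOX9 (2761 bp) at P17 where H3K4me3 was absent and H3K27ac present. Ccne1 had a SOX9 peak of 2944 bp over its start at P17 (2366 bp at P2) with neither mark beneath it. At Pold1 a SOX8 peak of 1562 bp ended 720 bp before the start, off H3K4me3, and further SOX8 (4133 bp) and SOX9 (8415 bp) peaks lay closer to Spib. At Fen1 the SOX9 peak was 6971 bp wide (chr19:10205242-10212212) and came within 849 bp of the start. It lay over a start or gene end of Myrf, a nearby gene.

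A peak that covered the gene's own start as well as another was not counted as closer to another gene. Several SOX peaks in the windows lay closer to the start of another gene (or, where none was listed, to either end of it). At P17 this held for the only SOX8 peaks of Chaf1a, Mcm2 and Uhrf1 and for the only SOX9 peaks of Cdc6, Chaf1a, Fen1, Pold1 and Uhrf1. The P17 SOX8 peak of Mcm2 (6218 bp, chr6:88900776-88906993) overlapped the start of Tpra1, and the P17 peaks of Uhrf1 overlapped the start of Kdm4b with 1958 bp for SOX8 and 2858 bp for SOX9. In the Chaf1a window they were 2479 bp for SOX8 and 5170 bp for SOX9, both closer to Ubxn6. The SOX9 peak in the Cdc6 window was 8879 bp wide and 15687 bp from the Cdc6 start at P2, and 8597 bp wide and 17059 bp from it at P17. At P2 it held for Chaf1a, Pold1 and Rfc4 with both factors and for Cdc6 with SOX9, and the Rfc4 peaks overlapped the start of Eif4a2. In all, 6 genes had a peak in all 4 SOX lists (Tacc3, Mcm7, Pold1, Gins2, Chaf1a and Uhrf1). That is 11.5% of the 52 with P2 H3K4me3, against 13.0% of other such genes.

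P2 SOX peaks and the later loss of H3K4me3 were set side by side at the start. SOX9 lay at 11 of the 19 starts that kept the mark (57.9%) and at 15 of the 33 that lost it (45.5%), against 50.4% and 27.6% of other genes. SOX8 lay at 7 of 19 (36.8%) and 3 of 33 (9.09%), against 28.2% and 9.19%. In both the 54 genes and the others, starts that lost H3K4me3 carried a SOX peak at a lower share.

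The 54 genes differed in the letters of their promoters by role. A CHR match (TTTGAA on either strand) was found in 15 of 21 mitosis promoters (71.4%) and in 3 of 24 replication promoters (12.5%; Mcm2, Cdc45 and Fen1). It was found in 10.7% of 7845 promoters of other genes with P2 H3K4me3 at the start and in 18.2% of all 27025 listed promoters. An E2F match (TTTCCCGC, TTTCGCGC, TTTGCCGC or TTTGGCGC on either strand) was found in 8 replication promoters (33.3%; Cdc6, Cdt1, Mcm3, Mcm5, Mcm6, Mcm7, Pold1 and Rfc3) and in 1 mitosis promoter (4.76%; Cdk1), against 4.81% and 2.33%. CCAAT lay in 85.7% of mitosis and 58.3% of replication promoters, against 39.5% and 38.0%.

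In the sequences shown, Mki67, Cdk1 and Top2a each held 2 CHR matches, with 3, 3 and 6 CCAAT matches. Those of Cdk1 began 71 and 15 bases before the start, and its E2F match 131 bases before it. Plk1 and Cenpe each held 1 CCAAT match, 14 and 12 bases before the start, and the stretches of Tacc3 and Ccne1 held none of these motifs. The stretches shown leave out the bases after the start. There the Plk1 promoter held a CHR match, at position 31 with the start as 1. E2F and CCAAT matches overlapped in 1 of the 45 promoters, as did CHR and CCAAT matches.

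The same motifs were about as frequent at starts that kept H3K4me3 as at those that lost it. E2F lay in 18.8% of 16 and 22.2% of 27 such promoters, CHR in 43.8% and 37.0%, and CCAAT in 68.8% and 70.4%. A SOX match (ACAAAG on either strand, and likewise ACAATG and likewise ACAATA) lay in 23.8% of 21 promoters with a P2 SOX9 peak at the start and in 22.7% of 22 with H3K4me3 and no SOX9 there, against 21.5% of other genes with P2 H3K4me3 at the start and 34.5% of all promoters. The median GC content of the promoters was 58.0%, against 62.3% at other genes with P2 H3K4me3.

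**Figure D5:**
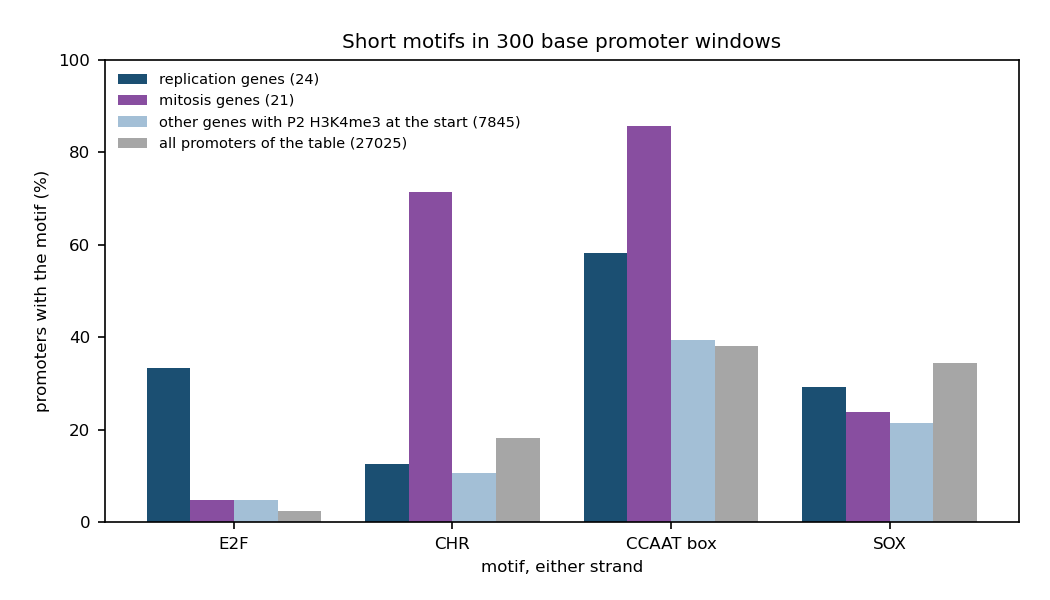
Percent of RefSeq promoters (300 bases) that hold each motif on either strand, for replication genes, mitosis genes, other genes with P2 H3K4me3 at the start and all listed promoters. CHR is found in 71.4% of mitosis and 12.5% of replication promoters, and E2F in 4.76% and 33.3%.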

How the data were processed

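CUT&RUN libraries of wildtype mouse retina at P2 and P17 gave 8 deposited peak lists, 1 for each target and age. The submitters' processing notes name Bowtie2, SEACR and the build GRCm38; versions, thresholds, and the use of replicates, of both SOX8 antibodies and of IgG are not given in the sources used here. Each line gives the position of a peak, and the deposited score field is 0 in every peak, so position and width were the only measures. Each group's list stands for its libraries by age and target.

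Genes were the 21883 protein-coding genes of RefSeq on GRCm38.p6 on the main chromosomes (13 others were not used). The table gives gene ends only, so exons, introns and UTRs were not assigned. Starts were those of the RefSeq promoter table, or either gene end where none was listed (9 of the 54 genes). The same rule was used for other genes, including neighbours of peaks. A start was listed for 17491 of the protein-coding genes. Positions count from 1. Counting was done with Python 3.11.15, pandas 2.3.3 and numpy 2.4.6, and was tested on simulated intervals. No test was made: the lists hold no replicate values.

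The 54 genes, the marker lists and the lists of other replication and mitosis genes were chosen with earlier results of these data known. Named with values were genes with a P17 SOX peak, with both SOX factors at P2, without H3K4me3 at either age or with it at P2 only, the 3 widest in each list, and those whose only SOX peaks lay closer to another start. Alternatives were no flanks, starts only, the wider 50% of each list, P2 lists cut to the P17 number, trimmed peaks and other gene backgrounds. Promoters printed were the first of each set by P2 H3K4me3 width with 100 bases or more outside every annotated gene, a limit added after the data were seen.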

Additional observations from a re-analysis of the deposited data

How the results depend on the processing

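No paired analysis was possible because the lists name no replicate, and for the same reason no replicate could be left out. The loss of H3K4me3 at the start held under 4 settings chosen after the data were seen: it was 48.1% over the window, 76.7% (of 30 genes, against 28.0% of others) with the wider 50% of each list, 60.4% (of 48, against 13.5%) with peaks trimmed to 500 bp around their centres, and 62.8% (of 43, against 7.32%) with listed starts only. Of 42 alternative counts of genes with a peak, 31 stayed within 1.5 times the reported count. With the wider 50% of the list the counts were 13 for P2 SOX9, 33 for P2 H3K4me3, 3 for P17 SOX8, 3 for P17 SOX9, 13 for P17 H3K4me3 and 16 for P17 H3K27ac. With P2 lists cut to the P17 number they were 13 for SOX9 and 30 for H3K27ac. No share of other genes is given beside these counts. P17 SOX9 lay at 5 genes without flanks and at 5 starts, and P17 H3K27ac at 24 starts. Median widths at the start were 2477 bp for P2 SOX9, 3744.5 bp for P2 H3K4me3, 2706.5 bp for P2 H3K27ac, 2302 bp for P17 SOX8, 2903 bp for P17 SOX9, 3086 bp for P17 H3K4me3 and 2474 bp for P17 H3K27ac. Over all other protein-coding genes, marked or not, the background share was 15.1% for P2 SOX8, 27.7% for P2 SOX9, 13.0% for P17 SOX8 and 15.7% for P17 SOX9. An absent peak says only that none was called at an unknown depth and threshold.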

Other observations

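The 54 genes are shorter than other genes with P2 H3K4me3, with a median length of 16153 bp against 23860 bp, so their windows offer less space for a peak away from the start. Among genes with H3K4me3 at the same age, the median widest SOX8 peak was 2381.5 bp at P2 and 2526 bp at P17, against 2228 bp and 3015 bp at other genes. The median widest SOX9 peak was 2528.5 bp and 5170 bp, against 2664 bp and 5289 bp.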
